A study of Mus musculus with 6 samples.

Results

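The enzymes that make serine and carry its carbon through the folate cycle were followed as 10 genes of a table of 19233: Phgdh, Psat1 and Psph of serine synthesis, Shmt1 and Mthfd1 of the cytosolic folate cycle, Shmt2, Mthfd2, Mthfd1l and Aldh1l2 of the mitochondrial folate cycle, and the mitochondrial serine transporter Sfxn1. They were chosen by symbol, and all 10 were in the table. The cells were RAW264.7, a mouse macrophage-like line of male origin, and all libraries were titled M2, the alternatively activated macrophage state. The 3 BMH-21 libraries came from cells given BMH-21, an RNA polymerase I inhibitor, at 500 nM for 24 h from 24 h after polarization, and the 3 DMSO libraries from cells given the solvent. RNA was taken from polysome fractions, where mRNAs carry several ribosomes, and enriched with oligo-dT. The treatment text speaks of bone-marrow-derived macrophages stimulated with IL-4, or with interferon gamma and LPS, so the polarizing agent used for the line itself is not stated, and 1 cell line stands for the macrophage here. The label of DMSO replicate 2 names polyA RNA where the other 5 name total RNA. The labels do not say whether the replicates were separate cultures, and the spread behind each p-value may therefore be technical.

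Cells build serine from the glycolytic intermediate 3-phosphoglycerate through a dehydrogenase, an aminotransferase and a phosphatase. A hydroxymethyltransferase then moves a carbon from serine to tetrahydrofolate and leaves glycine. In mitochondria that carbon is oxidised to formate, which is exported to the cytosol, where a trifunctional enzyme attaches it to folate again for the making of purines, thymidylate and methionine. Several of these genes are known targets of ATF4, the transcription factor of the amino acid and integrated stress responses, and the pathway is most active in dividing cells.

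In BMH-21 libraries 9 of the 10 mRNAs were lower than in DMSO libraries and Sfxn1 was slightly higher. The 10 genes together made up 150.5, 146.8 and 145.6 FPKM (fragments scaled to transcript length and library size) in BMH-21 replicates 1, 2 and 3, against 434, 443.7 and 438 FPKM in DMSO replicates 1, 2 and 3. That was 0.0390% to 0.0408% of the summed FPKM of a BMH-21 library and 0.126% to 0.131% of that of a DMSO library. Levels were compared with limma on log2(FPKM + 1) across the 9748 genes that reached 1 FPKM in 3 libraries or more, with Benjamini-Hochberg adjustment over all of them and a threshold of 0.05. Of the 10 genes, 9 were called lower, where 58.4% of all genes tested were, and 1 was called higher, where 19.9% of all genes tested were. All 10 were therefore called in one direction or the other, as were 78.3% of all genes tested. In all 10 the groups did not overlap. Non-overlap with the BMH-21 libraries lower was seen in 59.5% of all genes tested, with the BMH-21 libraries higher in 20.3%, and in either direction in 79.8%. The counts for these 10 genes thus stand against a background in which most genes moved. The sizes differed more: the median log2 fold change of the 10 genes was -1.27, against -0.23 for all genes tested. Fold changes are given as BMH-21 minus DMSO on the log2(FPKM + 1) scale, which understates the change of low genes. All 10 passed the filter, but Shmt1 and Aldh1l2 reached 1 FPKM in the DMSO libraries alone. These 2 genes thus entered the test through the group where they were high, and their calls are not independent of the filter. Of the 9748 genes tested, 475 reached 1 FPKM in 1 group alone. In bulk RNA, fewer cells that express a gene and less of its mRNA per cell cannot be told apart, and without unfractionated RNA neither can less mRNA and less of it on polysomes.

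**Figure D1:**
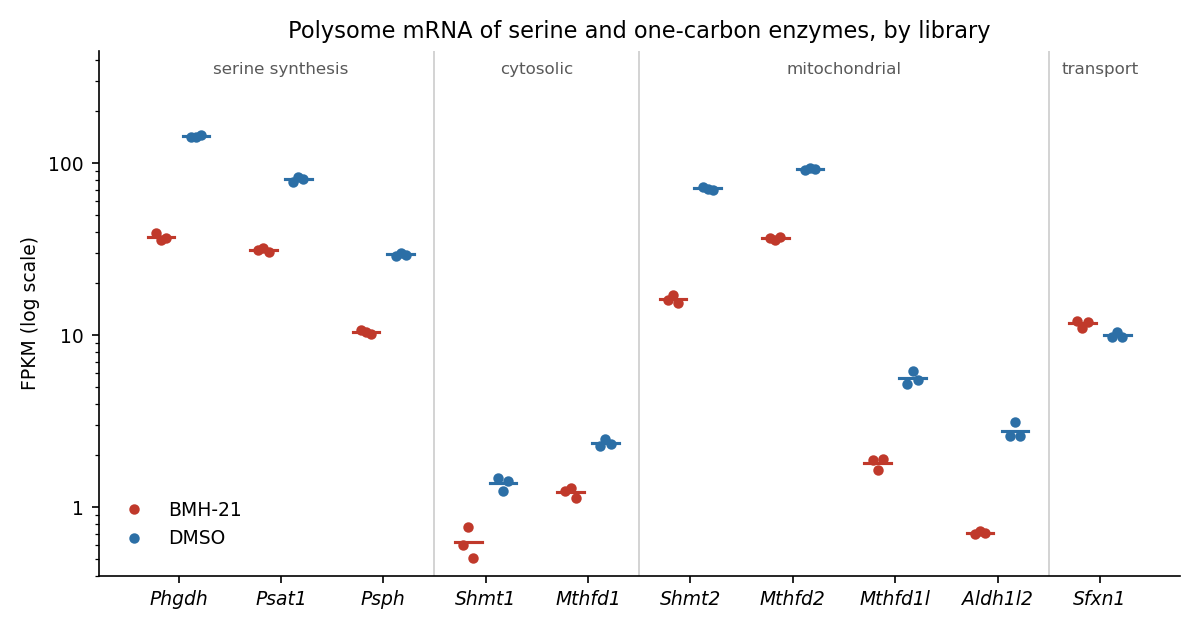
FPKM on a log scale for each of the 10 genes, with 1 point per library and a line at the group mean (3 BMH-21 libraries left, 3 DMSO libraries right). The BMH-21 points lie below the DMSO points for 9 genes, and for Sfxn1 they lie above, at 11.1 to 12.2 against 9.74 to 10.4 FPKM.

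The libraries held macrophage mRNAs, with all 9 macrophage markers on a fixed list present. Markers of T cells, B cells, fibroblasts, endothelium and erythroid cells summed to at most 0.394 FPKM per cell type in BMH-21 libraries and 0.570 FPKM in DMSO libraries, over those listed in the table. The neutrophil marker S100a8 reached 0.384 FPKM in BMH-21 libraries and 0.267 FPKM in DMSO libraries. Epithelial markers split the DMSO libraries. Epcam, Krt8, Krt18 and Cdh1 summed to 13.9, 10.9 and 13.04 FPKM in BMH-21 replicates 1, 2 and 3, and to 0, 0.0880 and 9.66 FPKM in DMSO replicates 1, 2 and 3. All 4 were listed at 0 in DMSO replicate 1, and Epcam and Cdh1 also in DMSO replicate 2. The sum of the 10 genes did not follow this split, since DMSO replicate 3 (438 FPKM in sum) lay between DMSO replicates 1 and 2. Single genes went either way: among the DMSO libraries, replicate 3 had the lowest Shmt2 (69.6 FPKM) and the highest Phgdh (145 FPKM). The source of these marker mRNAs is unknown, and whether it bears on any of the 10 genes was not tested. With DMSO replicate 3 alone set against the BMH-21 libraries, an alternative added after the data were seen in which the lone library is assumed to vary like the others, the log2 fold changes were -1.94 for Phgdh, -2.04 for Shmt2, -0.57 for Shmt1 and 0.24 for Sfxn1, and 9 genes were again called lower and 1 higher. Without DMSO replicate 3 they were -1.91, -2.09, -0.54 and 0.20.

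**Figure D2:**
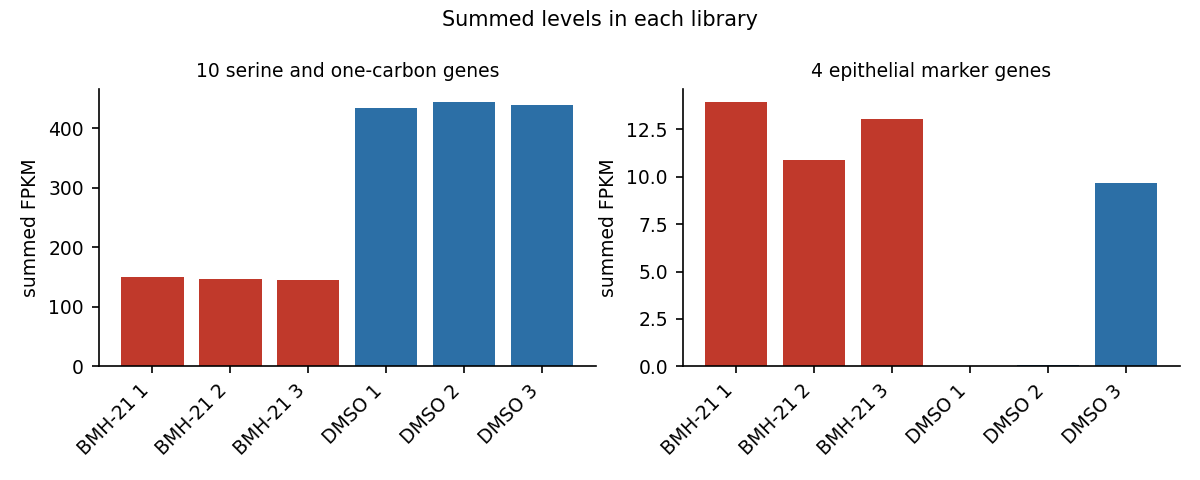
Summed FPKM of the 10 serine and one-carbon genes (left panel) and of the 4 epithelial markers (right panel), with 1 bar per library, BMH-21 libraries left of DMSO libraries. The left bars separate BMH-21 (145.6 to 150.5) from DMSO (434 to 443.7), while in the right panel DMSO replicate 3 (9.66) stands near the BMH-21 libraries and DMSO replicates 1 and 2 are at 0 and 0.0880.

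All 3 serine synthesis mRNAs fell in BMH-21. Phgdh (ENSMUSG00000053398.11, chromosome 3, 98313170 to 98339990, minus strand, GRCm38), the dehydrogenase that opens the route, had 39.0, 35.7 and 36.5 FPKM in BMH-21 replicates 1, 2 and 3, against 142, 142 and 145 FPKM in the DMSO replicates. Every BMH-21 library held less than every DMSO library by a wide margin, and the BMH-21 mean was 25.9% of the DMSO mean (log2 fold change -1.92 ± 0.04 SE, limma adjusted p = 8.85e-10). Psat1 (chromosome 19, 15904678 to 15947337), the aminotransferase of the second step, had 31.4, 32.2 and 30.3 FPKM with BMH-21 and 77.6, 83.2 and 80.8 FPKM with DMSO. Its BMH-21 mean was 38.9% of the DMSO mean (log2 fold change -1.34 ± 0.04 SE, limma adjusted p = 3.58e-09). Psph (chromosome 5, 129765558 to 129787449), the phosphatase that releases serine, had 10.8, 10.4 and 10.2 FPKM with BMH-21 and 28.9, 30.1 and 29.4 FPKM with DMSO. Its BMH-21 mean was 35.5% of the DMSO mean (log2 fold change -1.41 ± 0.04 SE, limma adjusted p = 2.44e-09). The spread within each group was small beside these gaps, at most 2.83 FPKM (SD, n = 3, Psat1 in DMSO). Psph shares 10.4% of its annotated exon bases with Cct6a on the opposite strand, and Cct6a averaged 24.0 FPKM in BMH-21 and 41.2 FPKM in DMSO libraries. The library kit is not stated to mark strand, so part of the Psph value may be Cct6a reads. The pseudogene Phgdh-ps1 was at most 0.0706 FPKM in BMH-21 and 0.316 FPKM in DMSO libraries.

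The mitochondrial folate enzymes fell as well, with the largest change of the 10 genes in Shmt2 (chromosome 10, 127517123 to 127522444), the mitochondrial hydroxymethyltransferase that splits serine into glycine and a folate-bound carbon. Shmt2 had 16.1, 17.1 and 15.4 FPKM in BMH-21 replicates 1, 2 and 3, against 72.9, 71.2 and 69.6 FPKM in the DMSO replicates. The BMH-21 mean was 22.7% of the DMSO mean (log2 fold change -2.07 ± 0.05 SE, limma adjusted p = 8.85e-10). Of the 5690 genes called lower, 19 fell further than Shmt2 and 32 further than Phgdh on this scale. The scale shrinks low genes, so these ranks partly reflect the higher levels of Shmt2 and Phgdh. Mthfd2 (chromosome 6, 83305691 to 83325908), the mitochondrial dehydrogenase and cyclohydrolase, had 36.7, 35.9 and 37.2 FPKM with BMH-21 and 91.1, 94.1 and 91.8 FPKM with DMSO (log2 fold change -1.31 ± 0.04 SE, limma adjusted p = 1.87e-09). Mthfd1l (chromosome 10, 3973118 to 4167081), which releases formate for export, had 1.87, 1.65 and 1.92 FPKM with BMH-21 and 5.21, 6.15 and 5.50 FPKM with DMSO. In both genes the groups stood clear of each other, and for Mthfd1l the BMH-21 mean was 32.3% of the DMSO mean (log2 fold change -1.23 ± 0.07 SE, limma adjusted p = 9.70e-08). Aldh1l2 (chromosome 10, 83487450 to 83534140), the formyltetrahydrofolate dehydrogenase that forms NADPH and carbon dioxide, had 0.698, 0.731 and 0.707 FPKM with BMH-21 and 2.59, 3.12 and 2.60 FPKM with DMSO. Its BMH-21 mean was 25.7% of the DMSO mean, as low a share as that of Phgdh, although its log2 fold change was -1.14 ± 0.07 SE (limma adjusted p = 1.74e-07). With a pseudocount of 0.1 in place of 1 that value was -1.82, and for Mthfd1l -1.58. Aldh1l2 shares 14.1% of its exon bases with D10Wsu102e on the opposite strand, which averaged 1.24 FPKM in BMH-21 and 1.10 FPKM in DMSO libraries, so the Aldh1l2 level in BMH-21 is uncertain.

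The cytosolic enzymes were the lowest of the set in DMSO and changed less. Shmt1 (chromosome 11, 60788104 to 60811718), the cytosolic hydroxymethyltransferase, had 0.603, 0.766 and 0.508 FPKM in BMH-21 replicates 1, 2 and 3, against 1.49, 1.24 and 1.41 FPKM in the DMSO replicates. The BMH-21 mean was 45.4% of the DMSO mean (log2 fold change -0.55 ± 0.08 SE, limma adjusted p = 7.39e-05, or -1.04 with a pseudocount of 0.1). Mthfd1 (chromosome 12, 76255298 to 76319803), the trifunctional cytosolic enzyme, had 1.23, 1.30 and 1.13 FPKM with BMH-21 and 2.26, 2.48 and 2.34 FPKM with DMSO. Its BMH-21 mean was 51.7% of the DMSO mean (log2 fold change -0.60 ± 0.06 SE, limma adjusted p = 6.22e-06, or -0.90 with a pseudocount of 0.1). Both were called lower with no overlap between the groups, though Shmt1 entered the test through the DMSO libraries alone. On the log2(FPKM + 1) scale, which shrinks low genes, 2134 genes called lower fell further than Shmt1 and 1842 further than Mthfd1. These ranks therefore partly reflect the low levels of the 2 genes. From the implied depth of 18770000 to 22560000 reads per BMH-21 library and 21610000 to 24070000 per DMSO library, the lowest Shmt1 value rested on about 30 reads with BMH-21 and about 77 with DMSO, and the lowest Mthfd1 value on about 75 and 171. These read numbers are rough. They assume the length of a single annotated transcript per gene and the lowest depth that fitted well, since multiples of a depth also fit. Shmt1 also shares 4.74% of its exon bases with Smcr8 on the opposite strand, which averaged 6.35 FPKM in BMH-21 and 6.24 FPKM in DMSO libraries, so low Shmt1 values are uncertain. With upper-quartile scaling between libraries the changes of Shmt1 and Mthfd1 were -0.44 and -0.45, and with quantile normalization -0.27 and -0.33, still called lower.

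Sfxn1 (chromosome 13, 54071869 to 54108342), the inner-membrane carrier that brings serine into mitochondria, had 12.2, 11.1 and 11.9 FPKM in BMH-21 replicates 1, 2 and 3, against 9.74, 10.4 and 9.75 FPKM in the DMSO replicates. The groups did not overlap, but the nearest libraries were close, BMH-21 replicate 2 at 11.1 and DMSO replicate 2 at 10.4 FPKM. The BMH-21 mean was 117% of the DMSO mean (log2 fold change 0.21 ± 0.05 SE, limma adjusted p = 0.0028). With columns scaled to equal totals the change was 0.10 and no longer called (limma adjusted p = 0.092), and with median-ratio scaling it was 0.48. The paralog Sfxn3 had 28.9, 25.8 and 26.2 FPKM with BMH-21 and 26.1, 27.9 and 26.4 FPKM with DMSO, and was not called (log2 fold change 0.010, limma adjusted p = 0.86), though it was called higher with median-ratio scaling, at 0.30.

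**Figure D3:**
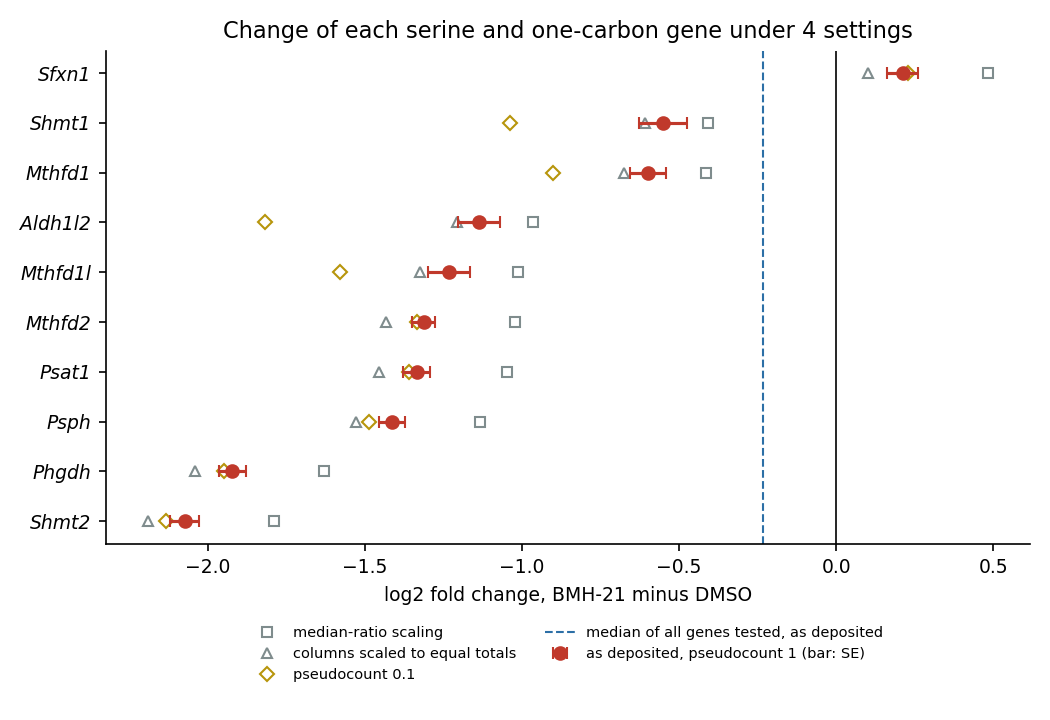
Log2 fold change (BMH-21 minus DMSO) of each gene as deposited with a pseudocount of 1 (circles, bars show SE), under 2 other scalings of the libraries and with a pseudocount of 0.1; the dashed line is the median of all genes tested, -0.23. The fall of 9 genes holds under each setting drawn, the smaller pseudocount moves the low genes Shmt1, Mthfd1, Aldh1l2 and Mthfd1l, and Sfxn1 shrinks to 0.10 with equal totals.

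The scaling of the libraries shifts every value. Median-ratio scaling raised the median log2 fold change of all genes by 0.24, with 3442 genes then called lower and 3724 higher, against 5690 lower and 1938 higher as deposited. Under quantile normalization the shift was 0.24, with 3498 lower and 3517 higher. Under upper-quartile scaling the shift was 0.20, with 3883 lower and 3349 higher. Scaling the columns to equal totals lowered the median, with 6623 lower and 1389 higher. Relative to the median of all genes as deposited, Shmt2 changed by -1.84, Phgdh by -1.69, Mthfd2 by -1.08, Mthfd1 by -0.37, Shmt1 by -0.32 and Sfxn1 by 0.44.

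Levels per length can be ordered within a group. In BMH-21 libraries Phgdh (35.7 to 39.0 FPKM) and Mthfd2 (35.9 to 37.2) overlapped at the top, followed by Psat1, Shmt2, Sfxn1, Psph, Mthfd1l and Mthfd1, with Aldh1l2 (0.698 to 0.731) and Shmt1 (0.508 to 0.766) overlapping at the bottom. In DMSO libraries Phgdh stood alone at the top at 143 ± 1.95 FPKM (SD, n = 3), followed by Mthfd2, Psat1, Shmt2, Psph, Sfxn1, Mthfd1l, Aldh1l2, Mthfd1 and Shmt1, and no neighbours overlapped. Sfxn1 stood above Psph in BMH-21 libraries and below it in DMSO libraries. Mthfd1 likewise stood above Aldh1l2 in BMH-21 libraries and below it in DMSO libraries.

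The ratio of the mitochondrial enzyme to its cytosolic counterpart was lower in BMH-21 libraries than in DMSO libraries. Shmt2 was 26.7, 22.3 and 30.2 times Shmt1 in BMH-21 replicates 1, 2 and 3, against 49.0, 57.5 and 49.3 times in the DMSO replicates. Shmt1 was at 0.508 to 0.766 FPKM with BMH-21, and part of that may be reads of the overlapping gene Smcr8. Such reads would lower the ratio most where Shmt1 is lowest. The size of the Shmt2 over Shmt1 difference is therefore uncertain, and the share of Smcr8 reads was not tested. Mthfd1l was 1.52, 1.27 and 1.70 times Mthfd1 with BMH-21 and 2.30, 2.48 and 2.35 times with DMSO. Mthfd2l, a paralog of Mthfd2 that also works in mitochondria, was at 1.13, 1.17 and 1.01 FPKM with BMH-21 and 1.04, 0.933 and 1.30 FPKM with DMSO, and was not called (log2 fold change 0.011, limma adjusted p = 0.90). It was called higher with quantile normalization, at 0.28. Mthfd2 was 32.5, 30.8 and 37.0 times Mthfd2l with BMH-21 and 87.9, 101 and 70.8 times with DMSO. In each of the 3 pairs the groups did not overlap. On the log2(FPKM + 1) scale the ratio differed by -1.52 for Shmt2 over Shmt1, by -0.63 for Mthfd1l over Mthfd1 and by -1.32 for Mthfd2 over Mthfd2l. The pseudocount of 1 shrinks the fall of the low gene Shmt1 and so enlarges the first of these values. With a pseudocount of 0.1 Shmt2 changed by -2.13 and Shmt1 by -1.04. The sizes of the 3 pairs should therefore not be ranked on this scale. The two-sided exact permutation test gave p = 0.10 for each pair, adjusted p = 0.10 over the 3 pairs, which is the smallest p that 3 against 3 samples allow and cannot pass 0.05. The scaling of the libraries cancels in a ratio of FPKM values within a library.

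**Figure D4:**
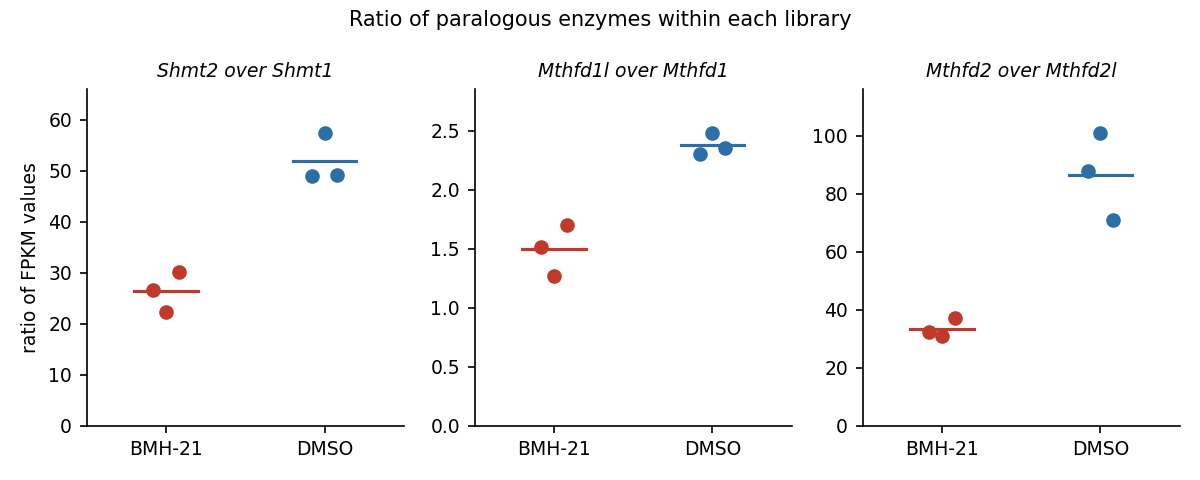
Ratio of the FPKM values of 2 paralogous enzymes within each library, with 1 point per library and a line at the group mean, 3 BMH-21 libraries left and 3 DMSO libraries right in each panel; axes start at 0. All BMH-21 ratios lie below all DMSO ratios, at 22.3 to 30.2 against 49.0 to 57.5 for Shmt2 over Shmt1. Part of the low Shmt1 values may be Smcr8 reads, so the size of that difference is uncertain.

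The 250 bases before the annotated starts of the genes were read for short motifs. RefSeq promoter windows (GRCm38.p6) were held for 9 of the 10 genes, Aldh1l2 not being among them. Those of the mRNAs with the highest levels in DMSO and of Sfxn1, the gene that did not fall, are shown 5′ to 3′ along the gene, with CCAAT or its reverse complement ATTGG in capitals. They lie at chr3:98339970-98340219, minus strand, for Phgdh, chr19:15925060-15925309, minus strand, for Psat1, chr6:83317605-83317854, minus strand, for Mthfd2, chr10:127522445-127522694, minus strand, for Shmt2 and chr13:54071595-54071844, plus strand, for Sfxn1. The RefSeq starts of Phgdh, Psat1, Psph, Shmt1 and Mthfd2 used here lie inside the gene spans given above, so other starts of these genes were not read.
Phgdh: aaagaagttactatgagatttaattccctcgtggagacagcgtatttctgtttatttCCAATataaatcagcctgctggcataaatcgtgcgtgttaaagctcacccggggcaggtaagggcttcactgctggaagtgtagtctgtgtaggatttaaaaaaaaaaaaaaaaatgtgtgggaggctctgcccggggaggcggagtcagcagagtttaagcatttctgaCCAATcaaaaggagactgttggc
Psat1: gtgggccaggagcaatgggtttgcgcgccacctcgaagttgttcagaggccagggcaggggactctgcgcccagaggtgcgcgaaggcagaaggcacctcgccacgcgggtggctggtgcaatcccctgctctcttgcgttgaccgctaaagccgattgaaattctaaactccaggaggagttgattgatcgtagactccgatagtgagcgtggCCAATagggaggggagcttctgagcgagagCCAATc
Mthfd2: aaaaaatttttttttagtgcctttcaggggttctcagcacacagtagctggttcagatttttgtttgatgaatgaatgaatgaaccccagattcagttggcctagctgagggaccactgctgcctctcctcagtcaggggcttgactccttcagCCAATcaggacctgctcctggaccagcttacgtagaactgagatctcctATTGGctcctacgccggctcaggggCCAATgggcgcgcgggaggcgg
Shmt2: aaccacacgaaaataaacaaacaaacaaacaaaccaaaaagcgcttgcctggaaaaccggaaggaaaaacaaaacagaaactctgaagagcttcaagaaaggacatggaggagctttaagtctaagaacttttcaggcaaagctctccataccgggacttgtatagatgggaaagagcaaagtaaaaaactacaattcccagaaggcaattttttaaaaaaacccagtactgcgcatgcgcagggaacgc
Sfxn1: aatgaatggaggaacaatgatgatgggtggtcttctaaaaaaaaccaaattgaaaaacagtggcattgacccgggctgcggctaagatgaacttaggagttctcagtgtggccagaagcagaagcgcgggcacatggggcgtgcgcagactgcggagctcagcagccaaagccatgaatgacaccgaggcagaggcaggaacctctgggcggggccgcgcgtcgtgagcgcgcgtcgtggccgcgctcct
CCAAT, the box bound by NF-Y, was found on either strand in 6 of the 9 windows (Phgdh, Psat1, Psph, Shmt1, Mthfd1 and Mthfd2), against 33.8% of 32851 windows of all genes. The windows of Shmt2, Mthfd1l and Sfxn1 held none. The core of the C/EBP-ATF response element, TGATGNAA, was in 0 of the 9 on either strand, and in 3.45% of all windows. The E-box CACGTG was likewise in 0 of the 9, and in 6.02% of all windows. The GC box GGGCGG was in 5 of the 9 and in 32.7% of all windows. A match is only a description of these letters, and no match says nothing of sites outside the window.

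Around the pathway, 10 lists of 90 genes were followed, of which 83 were in the table and 72 were tested. Of the 72, 50 were called lower and 9 higher, with a median log2 fold change of -0.47, against 58.4% lower and 19.9% higher among all genes tested. The same shares of all genes tested stand behind the counts of each list below. Only 1 of the 72, Mtr, passed the filter through a single group. Genes are named by a fixed list, and those marked as named afterwards were picked once their values were seen. With median-ratio scaling the 72 genes gave 39 lower and 21 higher.

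**Figure D5:**
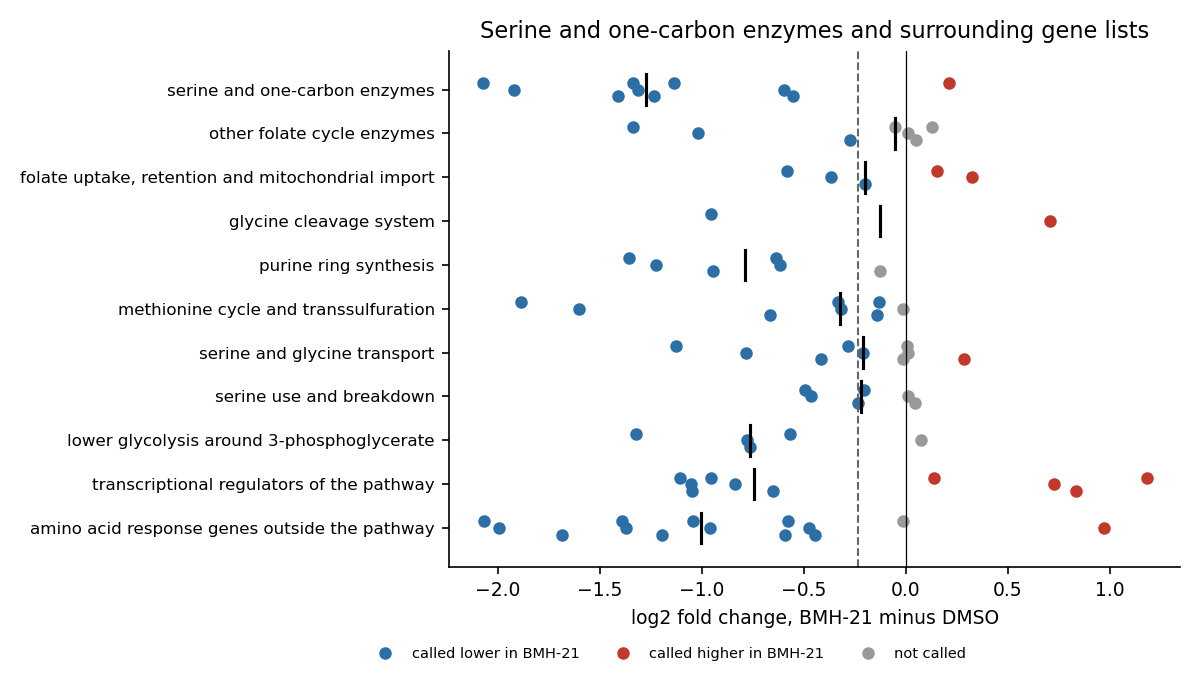
Log2 fold change (BMH-21 minus DMSO) of the tested genes of each list, with 1 point per gene coloured by its limma call, a black bar at the list's median and a dashed line at the median of all genes tested (-0.23). The serine and one-carbon enzymes (median -1.27) lie further to the left than the folate transport genes (-0.20) or the other folate cycle enzymes (-0.053).

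Of 7 tested other folate cycle enzymes, 3 fell and 4 were not called (Mthfd2l and, named afterwards, Mthfs, Mthfsl and Mtfmt). With median-ratio scaling 2 of the 7 were called lower and 3 higher. Thymidylate synthase Tyms, which spends a folate carbon on DNA, averaged 2.39 ± 0.23 FPKM in BMH-21 and 7.55 ± 0.16 FPKM in DMSO libraries (SD, n = 3 each; log2 fold change -1.34). Of 5 tested genes of folate uptake, retention and import, 3 fell and 2 rose, with Ggh and Slc46a1 named afterwards among them. With median-ratio scaling 1 was called lower and 2 higher. The folate carrier Slc19a1 averaged 14.1 FPKM in BMH-21 and 18.5 FPKM in DMSO libraries (log2 fold change -0.37, or -0.088 and not called with median-ratio scaling). Fpgs, which traps folates in the cell by adding glutamates, averaged 1.07 FPKM in BMH-21 and 2.10 FPKM in DMSO libraries (log2 fold change -0.58). Slc25a32, the mitochondrial folate carrier, averaged 5.01 FPKM in BMH-21 and 4.41 FPKM in DMSO libraries (log2 fold change 0.15, limma adjusted p = 0.022). That call was lost without BMH-21 replicate 1 (0.11), without DMSO replicate 1 (0.14), without DMSO replicate 2 (0.14), against DMSO replicate 3 alone (0.11) and with columns scaled to equal totals (0.050).

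Among the uses of the folate carbon, of 6 purine ring enzymes, 5 fell, 0 rose and 1 was not called (named afterwards, Ppat, Paics and Adsl fell and Pfas was not called). Gart, which takes up a formyl group, averaged 4.01 FPKM in BMH-21 and 6.78 FPKM in DMSO libraries (log2 fold change -0.64), and Atic, which takes up another, 2.63 FPKM in BMH-21 and 5.98 FPKM in DMSO libraries (log2 fold change -0.94). Of 8 tested genes of the methionine cycle and transsulfuration, 7 fell and 1 was not called (Mtrr, named afterwards). That count depended on the scaling, with 3 lower and 2 higher under median-ratio scaling, 4 lower and 1 higher under quantile normalization, and 3 lower and 1 higher under upper-quartile scaling. Methionine synthase Mtr had 0.494, 0.613 and 0.592 FPKM with BMH-21 and 1.47, 1.58 and 1.42 FPKM with DMSO (log2 fold change -0.67). Ahcy, which clears S-adenosylhomocysteine, averaged 7.28 FPKM in BMH-21 and 24.1 FPKM in DMSO libraries (log2 fold change -1.60), a fall larger than that of Psat1. Mat2a, which makes S-adenosylmethionine, averaged 6.58 FPKM in BMH-21 and 8.44 FPKM in DMSO libraries and was called lower at -0.32, though not under median-ratio scaling, which gave -0.056. Of the glycine cleavage system 2 genes were tested and they moved apart. The carrier protein Gcsh had 96.4, 94.7 and 98.6 FPKM with BMH-21 and 58.7, 58.9 and 58.6 FPKM with DMSO (log2 fold change 0.71, limma adjusted p = 6.02e-08). Dld, which it shares with the pyruvate and 2-oxoglutarate dehydrogenases, averaged 11.3 FPKM in BMH-21 and 22.9 FPKM in DMSO libraries (log2 fold change -0.96).

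On the supply side, 5 of 9 tested serine and glycine transporters and sideroflexins fell, 1 rose and 3 were not called; named afterwards, Slc6a9, Slc36a1 and Sfxn2 were among the falls, Slc25a38 was the rise and Slc38a1 was not called. The balance turned over with the scaling, since median-ratio, quantile and upper-quartile scaling each gave 3 lower and 4 higher, and as deposited 58.4% of all genes tested were lower and 19.9% higher. Slc1a4 and Slc1a5, neutral amino acid exchangers that carry serine, changed by -0.78 (1.07 FPKM in BMH-21 and 2.56 FPKM in DMSO libraries) and -0.42 (23.7 FPKM in BMH-21 and 31.9 FPKM in DMSO libraries). Slc38a2, a sodium-coupled transporter, averaged 18.1 ± 0.50 FPKM in BMH-21 and 18.3 ± 0.36 FPKM in DMSO libraries and was not called (log2 fold change -0.014), but was called higher with median-ratio scaling, at 0.27, and lower with equal totals, at -0.13. Of 5 glycolytic genes around 3-phosphoglycerate, 4 fell (named afterwards, Gapdh, Pgk1, Eno1 and Pkm). Pgam1, which draws 3-phosphoglycerate down glycolysis, had 861, 837 and 856 FPKM with BMH-21 and 800.3, 817 and 809 FPKM with DMSO and was not called (log2 fold change 0.074, limma adjusted p = 0.097). It was called higher with median-ratio scaling, at 0.37, and lower with quantile normalization, at -0.12. Of 6 tested genes of serine use and breakdown, 4 fell and 2 were not called (named afterwards, Srr, Sdsl and Sptlc1 fell, and Ptdss1 and Ptdss2 were not called). Under each of the same 3 scalings 2 were called lower and 2 higher. The falls included Sptlc2, a subunit of the serine-consuming first enzyme of sphingolipid synthesis, with 8.48 FPKM in BMH-21 and 12.1 FPKM in DMSO libraries (log2 fold change -0.47).

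Among 10 tested regulators, 6 fell and 4 rose, where 58.4% of all genes tested were called lower and 19.9% higher. The 4 that rose, named afterwards, were Atf3, Cebpb, Nfe2l2 and Mdm2. Atf4 had 197, 175 and 199 FPKM in BMH-21 replicates 1, 2 and 3, against 322, 353 and 346 FPKM in the DMSO replicates (log2 fold change -0.84 ± 0.06 SE, limma adjusted p = 4.83e-07). The groups stood clear of each other. Atf5, a related factor, averaged 123 FPKM in BMH-21 and 267 FPKM in DMSO libraries (log2 fold change -1.10), and Ddit3, which encodes CHOP, 37.9 FPKM in BMH-21 and 59.9 FPKM in DMSO libraries (log2 fold change -0.65). Myc was under the filter, at 0.277 to 0.608 FPKM in BMH-21 and 0.397 to 0.846 FPKM in DMSO libraries. Of 14 tested amino acid response genes outside the pathway, 12 fell, 1 rose (Slc7a11, named afterwards) and 1 was not called (Eif4ebp1, named afterwards). This count stands against the same 58.4% lower and 19.9% higher among all genes tested. The median log2 fold change of the 14 genes was -1.002, against -0.23 for all genes tested. Asparagine synthetase Asns changed by -1.39 and the pseudokinase Trib3 by -2.07. Pycr1, the mitochondrial enzyme of proline synthesis, had 1.06, 0.563 and 0.818 FPKM with BMH-21 and 5.61, 6.68 and 6.26 FPKM with DMSO (log2 fold change -1.99 ± 0.10 SE, limma adjusted p = 4.74e-08).

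Outside all lists, the genes whose profile over the 6 libraries lay nearest to the mean profile of the 10 genes included Serbp1, Babam2, Pgm1 and Got2, at Euclidean distances of 0.0587 to 0.0681 in log2 units, among 4781 candidates whose mean log2(FPKM + 1) was 3 or more. Serbp1, which encodes a ribosome-bound mRNA-binding protein, averaged 19.8 FPKM in BMH-21 and 44.1 FPKM in DMSO libraries. Got2, the mitochondrial aspartate aminotransferase, averaged 14.9 FPKM in BMH-21 and 33.6 FPKM in DMSO libraries. They were chosen for this likeness, so their change is a description and was not tested further.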

How the data were processed

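The deposited table holds 1 column per library for 19233 genes. The authors' values were read as FPKM from their fractional steps and unequal totals, since the labels name no unit. Per the submitters' processing notes, reads were handled with Trimmomatic 0.38, HISAT2 and SAMtools on mm10; the counting and normalizing tools and the annotation were not given in the sources used here. Steps between low values of single-transcript genes implied the read depths stated above, with 77.6% to 78.9% of values within 0.01 of a whole number of at most 20 reads, so whole reads were not recovered for nearly all genes and no count test was run. The 50.7% of genes that reached 1 FPKM in 3 or more libraries were tested on log2(FPKM + 1) with limma 3.58.1 (R 4.3.3, intensity trend), checked on simulated data. The simulated data had independent noise and few changed genes, unlike the data here, so the check does not show how well the p-values hold. Since FPKM is relative to each library, total mRNA per cell is not measured.

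The genes, lists and settings were chosen with earlier results of these data known. Named genes are the 10 enzymes, genes fixed by name from the surrounding lists, and the 5 nearest profiles, some of which are not reported here; Cct6a, D10Wsu102e, Phgdh-ps1 and the cell type markers are named for uncertainty or content. Positions are from GENCODE M21 on GRCm38, the assembly of mm10. Alternatives covered the pseudocount, the filter, 4 scalings, the intensity trend, a block on replicate number and leaving out libraries.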

Additional observations from a re-analysis of the deposited data

How the results depend on the processing

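The fall of 9 genes was called in every alternative run in which they were tested; the filter of at least 5 FPKM left 6 of them (Shmt1, Mthfd1 and Aldh1l2 were not tested). Sfxn1 was not called with columns scaled to equal totals (0.10), so 0 of the 10 genes were then called higher. Leaving out 1 library gave 5450 to 5597 genes lower and 1816 to 1876 higher; the filter of at least 5 FPKM gave 3465 lower. Median-ratio scaling gave 3442 lower and 3724 higher, quantile normalization 3498 lower and 3517 higher, and upper-quartile scaling 3349 higher. The surrounding lists gave 21 higher with median-ratio scaling, 19 with quantile normalization and 20 with upper-quartile scaling, against 9 as deposited; the cause was not tested beyond the shift of the median that these scalings make.

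Same-numbered libraries did not deviate together (r = -0.11, -0.09 and -0.06 across genes), and for libraries of different number r was 0.0046 to 0.097. Deviations from a mean of 3 libraries are tied to one another, so these values cannot settle whether the numbers pair the samples. With the replicate block 5608 genes were called lower and 1894 higher, the 10 genes kept their calls (Sfxn1 at 0.21, limma adjusted p = 0.0081). For the paralog ratios the exact paired permutation test cannot go below p = 0.25.

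Named genes that changed sign were near 0. Mthfd2l was -0.052 with equal totals, -0.13 against DMSO replicate 3 alone, and -0.043 to 0.081 without 1 library. Slc38a2 was 0.27, 0.21 and 0.21 with median-ratio scaling, quantile normalization and upper-quartile scaling, and 0.012 against DMSO replicate 3 alone. Sfxn3 was -0.11 with equal totals and -0.038 to 0.040 without 1 library. Pgam1 was -0.048 with equal totals and -0.12 with quantile normalization. The fewest implied reads stood behind Shmt1 (about 30 with BMH-21 and 77 with DMSO at the lowest), followed by Mthfd1 (about 75 and 171).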

Other observations

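Folr2, Folr1 and Gldc, list genes under the filter, had groups that did not overlap. They were chosen after their values were seen and were not tested. The other list genes under the filter (Aldh1l1, Amt, Cbs, Gnmt, Sfxn4, Sfxn5, Myc and Vldlr) had groups that overlapped. The share without overlap among all genes under the filter was not computed. The folate receptor gene Folr2 had 0.861, 1.00 and 0.650 FPKM in BMH-21 replicates 1, 2 and 3, against 0.103, 0.140 and 0.143 FPKM in the DMSO replicates. Folr1 had 0.788, 0.945 and 0.795 FPKM with BMH-21 and 0.362, 0.544 and 0.404 FPKM with DMSO. Gldc, the decarboxylase of the glycine cleavage system, had 0.236, 0.342 and 0.552 FPKM with BMH-21 and 0.0545, 0.0911 and 0.102 FPKM with DMSO.

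Of the regulators outside the named genes, Mycn was far above Myc, at 67.7, 74.3 and 68.8 FPKM with BMH-21 and 156, 142 and 142 FPKM with DMSO. Cebpb varied most within a group, at 200, 172 and 190 FPKM with BMH-21 and 53.4, 81.6 and 126 FPKM with DMSO. The DMSO replicate with the highest Cebpb, replicate 3, was also the one with epithelial markers. The source of those marker mRNAs is unknown, and whether it bears on Cebpb was not tested.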
